A study of Mus musculus with 12 samples.

Results

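The primitive endoderm genes described here are 10 genes taken as marks of that lineage, Gata4, Gata6, Sox17, Sox7, Foxa2, Pdgfra, Dab2, Lama1, Sparc and Col4a1, out of 26061 genes in the deposited table. All 10 were found by symbol. Expression was measured by sequencing of poly(A)-selected RNA from mouse embryonic stem cells (ESCs), in 12 libraries that fall into 4 groups of 3. Every group came from Tet2 KO ESCs in which a PiggyBac construct had been stably integrated, carrying either WT TET2 or the catalytic mutant (H1304Y, D1306A), and every group was infected with a lentiviral shRNA against Setdb1. Puromycin at 1 µg/ml was added 48 h after infection, and cells were collected after 3 days of selection. One pair of groups, WT and mutant, was grown in 2i medium with LIF (naïve ESCs), in which PD0325901 inhibits MEK and CHIR99021 inhibits GSK3. The other pair was grown in fetal bovine serum with LIF (primed ESCs), and neither medium was used with feeder cells. The number of clones behind each rescue line was not given in the sources used here, and libraries that carry a non-targeting shRNA instead are not analysed here. Replicates are separate samples by their labels alone, so p-values measure the spread between these samples, which may be technical. Gene reads per library ranged from 8066662 to 21335933. Setdb1 had 114 to 585 reads in each library, which does not measure the depletion because all groups carry the shRNA. Tet2 reads, which can come from the transgene, numbered 1624 to 65641. In reads per kilobase of exon per 1000000 gene reads (RPKM), Tet2 was at 94.8 ± 43.0 (SD, n = 3) in WT naïve, 22.1 ± 12.8 in mutant naïve, 274 ± 55.6 in WT primed and 75.8 ± 21.9 in mutant primed ESCs. In the paper, a western blot showed similar amounts of WT and mutant TET2 protein. The part of these RNA levels in the differences below was not tested.

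Primitive endoderm is the epithelium that separates from the epiblast in the inner cell mass before implantation and gives rise to the visceral and parietal endoderm of the yolk sac. FGF signalling through ERK favours its formation, with GATA6 and then GATA4, SOX17 and SOX7 acting as its transcription factors, while NANOG marks the epiblast. Its cells carry the receptor PDGFRA and the endocytic adaptor DAB2, and they secrete a basement membrane of laminin, type IV collagen and SPARC. The comparison of media sets 2i against serum, which differ in both inhibitors, in serum and in the base medium, and the comparison of rescue lines sets WT against catalytically mutant TET2.

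Per length of exon, Sparc was far above the other 9 genes. Sparc had a median of 135 RPKM over the 12 libraries (107 to 177), above 98.9% of the listed genes by its mean deposited value. Lama1 followed with a median of 2.88 RPKM (1.99 to 6.12) and Col4a1 with 1.72 (0.281 to 5.35), and by mean deposited value they lay above 76.1% and 64.0% of the listed genes. The medians of Sox17 and Gata4 were 0.463 and 0.35 RPKM. Each of the remaining 5 genes (Sox7, Gata6, Dab2, Pdgfra and Foxa2) had a median of 0.166 RPKM or less, the lowest being Foxa2 at 0.0099. Sparc did not overlap with Lama1 in any library, whereas every other pair of neighbours in the order of mean levels did overlap. The highest levels were therefore those of Sparc, then Lama1 and Col4a1, matrix genes that other cells also make. Their levels do not show that primitive endoderm cells were present. The transcription factors had few reads, from 12 (Foxa2) to 228 (Sox17) over the 12 libraries. Of these factors, Gata4, Gata6 and Sox17 were read in all libraries and lay above 50.4%, 44.4% and 50.8% of the listed genes by mean value. In the same libraries the epiblast factor Nanog had 36729 to 71432 reads per group and Pou5f1 25978 to 42276. RNA was taken from whole cultures, so fewer cells that express a gene and less RNA per cell cannot be told apart.

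**Figure D1:**
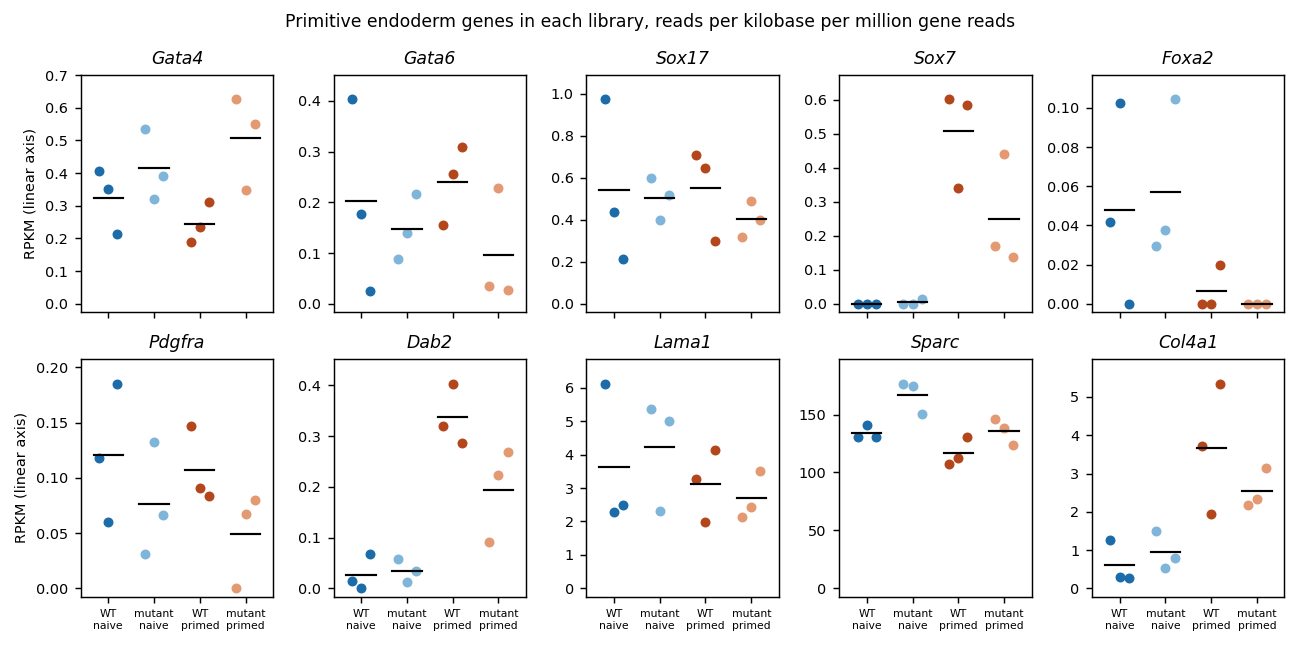
RPKM of each of the 10 genes in the 12 libraries (points, linear axes that differ between panels), by group, with the mean of 3 libraries as a bar. With both rescue lines the naïve libraries of Sox7, Dab2 and Col4a1 lay under the primed ones, and Sparc lay at 107 to 177 RPKM throughout.

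Between media, 3 genes stood apart. Col4a1 and Dab2 were lower in naïve ESCs with both rescue lines, and Sox7, which was too low for the main test, had 1 read in the 6 naïve libraries together against 94 in the 6 primed ones. The main test was limma on the deposited log2-scale values with Benjamini-Hochberg adjustment over 14185 genes. Those genes had a mean 1 or more above the minimum of the table, which stands for 0 reads. Of the 10 genes, 6 passed that filter (Gata4, Sox17, Dab2, Lama1, Sparc and Col4a1) and 4 did not (Gata6, Sox7, Foxa2 and Pdgfra). Dab2 passed through its primed groups, since its naïve group means lay 0.452 and 0.634 above that minimum, against 1.92 and 1.48 for its primed groups. Dab2 therefore had to be lower in naïve ESCs in order to be tested. The counts and medians of the 6 genes between media include it. At an adjusted p under 0.05, 2 of the 6 tested genes were lower in naïve ESCs with WT TET2, where 17.3% of all tested genes were called in that direction. With the mutant the same 2 genes were called, and the background was 16.9%. Apart from Dab2, which had to be lower in order to be tested, only Col4a1 was called lower with either line. The counts beside these shares are therefore not a result about the genes as a set. By limma 0 of the 6 were called higher in naïve ESCs with either line, against 18.6% of all tested genes with WT TET2 and 18.3% with the mutant, with 0 higher at an unadjusted p under 0.05 and 0 by limma-voom. Over all tested genes, 23.4% and 23.2% were higher at an unadjusted p under 0.05, and limma-voom called 18.2% and 18.0% higher. The median difference of the 6 was 0.06 with WT TET2 and 0.0 with the mutant, beside 0.01 and -0.01 over all tested genes. In a fit without the filter, 3 of the 10 genes were called lower with WT TET2, against 13.7% of 19954 genes with a read. With the mutant 3 were called lower, against 13.1%, and 1 higher, against 14.5%.

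**Figure D2:**
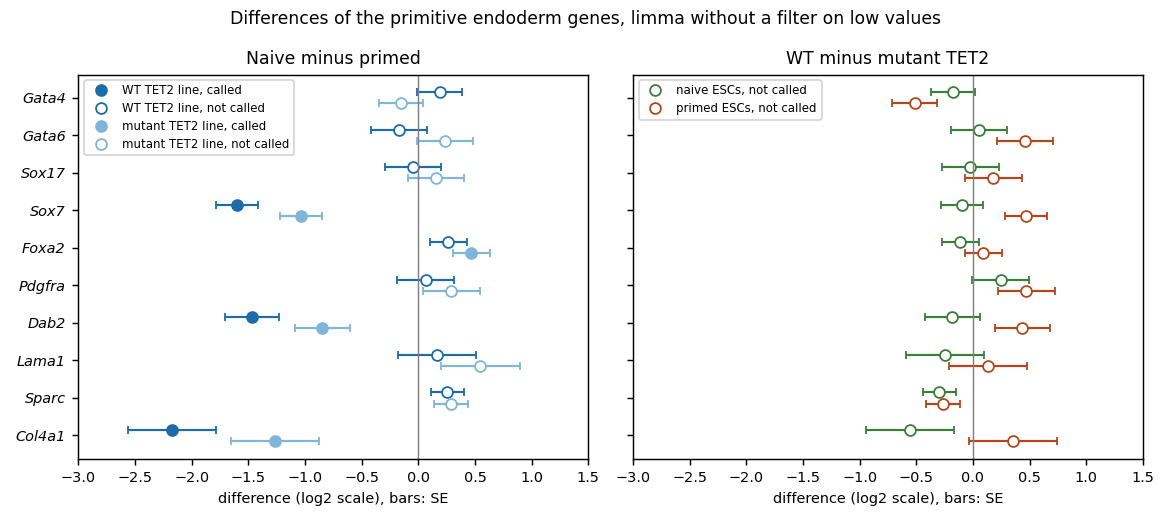
Differences of the 10 genes on the deposited log2 scale (points) with their SE (bars), naïve minus primed for each rescue line on the left and WT minus mutant TET2 for each medium on the right, from limma without a filter on low values. Filled points mark an adjusted p under 0.05, reached by Sox7, Dab2 and Col4a1 with both lines and by Foxa2 with the mutant, and by none of the genes between rescue lines.

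GATA4 and GATA6 are zinc finger factors that can convert ESCs to extraembryonic endoderm. Gata4 had 16, 17 and 10 reads in the naïve libraries with WT TET2 and 30, 14 and 31 with the mutant. In primed ESCs it had 6, 9 and 26 reads with WT TET2 and 22, 15 and 24 with the mutant. On the deposited scale, which corrects for depth, the media overlapped in both lines. The naïve minus primed difference of Gata4 was 0.19 (SE 0.19, adjusted p = 0.476) with WT TET2 and -0.15 (SE 0.19, adjusted p = 0.572) with the mutant. Gata6 was lower, with 13, 7 and 1 reads (WT) and 4, 5 and 14 reads (mutant) in naïve ESCs. Its primed libraries held 4, 8 and 21 reads with WT TET2 and 1, 8 and 1 with the mutant. All 4 groups of Gata6 overlapped between media, and without the filter the differences were -0.17 (adjusted p = 0.657) and 0.23 (adjusted p = 0.529). The annotated exons of Gata6 share 58 bases with a gene on the opposite strand, 1010001N08Rik, which had 0 reads in the 12 libraries.

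SOX17 and SOX7 belong to the same subgroup of HMG box factors, and both act in extraembryonic endoderm and in blood vessels. Sox7 lies near Gata4 on chromosome 14 of NCBIM37 (Sox7 at chr14:64562511-64569569, plus strand, and Gata4 at chr14:63817759-63890529, minus strand), and Sox17 at chr1:4481009-4486494 (minus strand). Sox17 had 31, 17 and 8 reads in naïve ESCs with WT TET2 and 27, 14 and 33 with the mutant. In primed ESCs the reads were 18, 20 and 20 with WT TET2 and 9, 17 and 14 with the mutant. The first naïve library with WT TET2 was highest, at 0.974 RPKM, and the third was lowest of all 12, at 0.211, so the widest spread of Sox17 lay within a group. Its differences between media were -0.05 (SE 0.24, adjusted p = 0.897) and 0.15 (SE 0.24, adjusted p = 0.66).

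Sox7 behaved otherwise. No read of Sox7 was found in the 3 naïve libraries with WT TET2, and those with the mutant had 0, 0 and 1. The primed libraries held 16, 11 and 41 reads with WT TET2 and 5, 16 and 5 with the mutant, so that every primed library was above every naïve one. Corrected for depth, Sox7 was at least 19.0-fold higher in primed than in naïve ESCs with WT TET2, taking 3 reads over the naïve group as the floor. With the mutant the ratio was 38.5, with a 95% counting interval of 6.32 to 1578 that covers counting error only. Leaving out 1 library took the WT bound to 12.2 (WT naïve replicate 2) at the lowest. The mutant ratio was 23.0 without mutant primed replicate 2, and without mutant naïve replicate 3, which held the 1 read, it became at least 7.02-fold. Without the filter, limma gave naïve minus primed differences of -1.60 (SE 0.18, adjusted p = 1.45e-05) and -1.03 (SE 0.18, adjusted p = 0.000739), on a scale that compresses differences at low counts. Over the 10 fits that could include it, the adjusted p of Sox7 ran from 6.31e-06 to 0.00132 with WT TET2 and from 0.000145 to 0.00901 with the mutant. Even in primed ESCs the level was small, at 0.508 ± 0.145 RPKM (SD, n = 3) with WT TET2 and 0.249 ± 0.167 with the mutant.

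FOXA2 is a forkhead factor of visceral and definitive endoderm. Foxa2 had 1, 3 and 0 reads in naïve ESCs with WT TET2 and 1, 1 and 5 with the mutant. In primed ESCs it had 0, 0 and 1 reads with WT TET2 and no read with the mutant. With the mutant the groups did not overlap, though 5 of the 7 naïve reads were in replicate 3, and no fold is given for so few reads. That difference was 0.47 (SE 0.16, adjusted p = 0.0429) by limma without the filter, and in the other 9 fits the adjusted p was 0.0515 (replicate block) or more, up to 0.134 without mutant naïve replicate 3. With WT TET2 the difference was 0.26 (adjusted p = 0.257), which reached 0.44 (adjusted p = 0.0394) without WT naïve replicate 3. The interaction of medium and rescue line was -0.20 (SE 0.23, adjusted p = 0.937).

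PDGFRA is the receptor for PDGF-A and is used as a surface mark of primitive endoderm. Pdgfra had 8, 5 and 15 reads in naïve ESCs with WT TET2 and 3, 10 and 9 with the mutant. The primed libraries had 8, 6 and 12 reads with WT TET2 and 0, 5 and 6 with the mutant. All groups overlapped between media, with differences of 0.06 (adjusted p = 0.907) and 0.29 (adjusted p = 0.437) in the fit without the filter. Its ligand Pdgfa was read far more often, with 1597 to 2749 reads per group. Of the 4 listed PDGF genes other than Pdgfra, 3 were tested. Pdgfc was higher in naïve ESCs, by 1.06 with WT TET2 (adjusted p = 0.00185) and 0.89 with the mutant (adjusted p = 0.0062), and so was Pdgfb, by 0.60 (adjusted p = 0.0166) and 0.70 (adjusted p = 0.00744). Pdgfa differed by -0.47 with WT TET2 (adjusted p = 0.0262) and by -0.30 with the mutant (adjusted p = 0.147).

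DAB2 is a clathrin adaptor that places cargo receptors such as megalin at the apical membrane of the endoderm. Dab2 had 1, 0 and 6 reads in naïve ESCs with WT TET2 and 6, 1 and 5 with the mutant. In primed ESCs the reads were 19, 29 and 45 with WT TET2 and 6, 18 and 22 with the mutant. Once depth was taken into account every primed library was above every naïve one, although the lowest primed library with the mutant (0.091 RPKM) was close to the highest naïve one (0.068 RPKM). Summed reads per size factor were 11.2-fold higher in primed ESCs with WT TET2 (95% counting interval 5.21 to 28.5) and 5.68-fold higher with the mutant (2.96 to 11.8). Replicate 3 held 6 of the 7 WT naïve reads, and without it the WT ratio was 51.6, outside the counting interval. Without WT naïve replicate 2 it was 7.14. The naïve minus primed difference was -1.47 (SE 0.24, adjusted p = 0.000228) with WT TET2 and -0.85 (SE 0.24, adjusted p = 0.0127) with the mutant. The second of these was lost when mutant naïve replicate 2 was left out (adjusted p = 0.0628), in a range of 0.00578 to 0.0945 over 23 fits, of which 18 called it. With no filter it was also lost without mutant naïve replicate 3 (adjusted p = 0.0597) and without mutant primed replicates 2 (adjusted p = 0.0818) and 3 (adjusted p = 0.0815). Megalin itself, Lrp2, moved the same way, with differences of -2.54 (adjusted p = 3.63e-06) and -1.85 (adjusted p = 8.79e-05), from 86 to 984 reads per group with WT TET2 and from 149 to 529 with the mutant. From the same list of further primitive endoderm genes, Amn was not called (-0.30, adjusted p = 0.44, and 0.08, adjusted p = 0.847). Nor was Cubn without the filter (-0.35, adjusted p = 0.183, and -0.23, adjusted p = 0.421).

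Col4a1 encodes the alpha 1 chain of type IV collagen, the network-forming collagen of basement membranes. Its level in naïve ESCs was 1.26, 0.285 and 0.281 RPKM with WT TET2 and 1.51, 0.524 and 0.785 with the mutant. In primed ESCs it was 3.73, 1.93 and 5.35 RPKM with WT TET2 and 2.17, 2.33 and 3.15 with the mutant. The media did not overlap in either line, and within each naïve group replicate 1 was the highest. Summed reads per size factor were 6.97-fold higher in primed ESCs with WT TET2 (95% counting interval 5.82 to 8.40) and 2.75-fold higher with the mutant (2.38 to 3.17). These intervals leave out the spread between libraries. WT naïve replicate 1 held 87 of 134 reads, and without it the WT ratio was 13.9, while leaving out WT primed replicate 3 gave 4.71. The naïve minus primed difference was -2.17 (SE 0.38, adjusted p = 0.000373) with WT TET2 and -1.27 (SE 0.38, adjusted p = 0.0161) with the mutant. Without mutant naïve replicate 2 the latter was -1.02 and was not called (adjusted p = 0.0862, in a range of 0.00205 to 0.165 over 24 fits, of which 18 called it). With no filter it was called in 1 of the 6 fits that left out a compared library, that without mutant naïve replicate 1 (adjusted p = 0.0352). The adjusted p was 0.0734 to 0.165 without mutant naïve replicate 2 or 3 or any of the mutant primed replicates. Counting the non-overlapping genes among all 10 gave 4 with WT TET2, against 40.4% of genes with a read. They were Sox7, Dab2 and Col4a1, which were lower in naïve ESCs, and Sparc, which was higher. With the mutant there were also 4, against 36.3%, with Foxa2 in place of Sparc.

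Lama1 and Sparc, the other matrix genes, did not pass the test between media. Lama1 encodes the alpha chain of the laminin that appears earliest in the embryo. It was at 6.12, 2.30 and 2.48 RPKM in naïve ESCs with WT TET2 and at 5.37, 2.32 and 4.996 with the mutant. In primed ESCs it was at 3.27, 1.99 and 4.14 RPKM with WT TET2 and at 2.13, 2.44 and 3.50 with the mutant. In naïve ESCs, WT replicate 1 and mutant replicates 1 and 3 were above all primed libraries, and the other naïve libraries were within the primed range. The differences were 0.17 (SE 0.34, adjusted p = 0.734) and 0.55 (SE 0.34, adjusted p = 0.226). SPARC is a secreted protein that binds collagen and calcium. Sparc was at 131, 140.9 and 130.3 RPKM in naïve ESCs with WT TET2 and at 177, 174 and 150.2 with the mutant, and in primed ESCs at 107, 112 and 130.4 with WT TET2 and at 146, 138 and 123.5 with the mutant. On the deposited scale its naïve libraries with WT TET2 lay above the primed ones without overlap, and those with the mutant overlapped. The differences were 0.26 (SE 0.15, adjusted p = 0.184) and 0.29 (SE 0.15, adjusted p = 0.136). With the mutant, 1 of 24 fits called Sparc, with no filter and without mutant naïve replicate 3 (0.39, adjusted p = 0.043, in a range of 0.043 to 0.323).

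Between rescue lines, no gene of the 6 tested passed the threshold in either medium. In naïve ESCs limma called 0 of 6, against 0.0987% of all tested genes, with 0 at an unadjusted p under 0.05, beside 13.3%, and 0 called by limma-voom. Of all 10 genes, Sparc was the 1 gene whose groups did not overlap there, against 13.7% of genes with a read. It was lower in all 3 libraries with WT TET2, with a WT minus mutant difference of -0.30 (SE 0.15, adjusted p = 0.388). In primed ESCs, too, limma called 0 of 6, against 0.254% of all tested genes, with 1 at an unadjusted p under 0.05, beside 16.2% of all tested genes, and 0 called by limma-voom. That gene was Gata4, with a WT minus mutant difference of -0.51 (SE 0.19, adjusted p = 0.233). Gata4 was lower in all 3 libraries with WT TET2 than in those with the mutant, and Dab2 was higher in all 3, with a difference of 0.44 (SE 0.24, adjusted p = 0.382). Without the filter, 2 of 10 genes had an unadjusted p under 0.05, beside 14.2% of genes with a read, and the second was Sox7. Sox7 had 68 reads with WT TET2 and 26 with the mutant, and its difference was 0.47 (SE 0.18, adjusted p = 0.284). The 2 of 10 genes without overlap, Gata4 and Dab2, stand against 18.0% of genes with a read. In primed ESCs Lama1, Sox17 and Col4a1 differed by 0.14, 0.18 and 0.35, and Sparc by -0.26 (adjusted p = 0.381). In naïve ESCs Col4a1 differed by -0.55 (SE 0.38, adjusted p = 0.522). Between same-numbered naïve libraries, Col4a1 was lower with WT TET2 by 0.24, 0.54 and 0.88, and Sparc by 0.47, 0.32 and 0.11. These 2 of 10 genes had the same sign in all 3 pairs, against 35.0% of genes with a read. In the fit that blocks on replicate number, the difference of Col4a1 had an SE of 0.20 and an unadjusted p of 0.014, beside 19.7% of tested genes under 0.05, and it was not called (adjusted p = 0.155, in a range of 0.155 to 0.925 over 24 fits). That of Sparc had an adjusted p of 0.311 with the block. The median difference of the 6 genes was -0.21 in naïve and 0.16 in primed ESCs, beside 0.0 and 0.01 over all tested genes.

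The medium effects of Col4a1 and Dab2 were larger in size with WT TET2 than with the mutant, and the test of that difference did not pass. The interaction was -0.90 (SE 0.54, adjusted p = 0.976) for Col4a1 and -0.62 (SE 0.34, adjusted p = 0.976) for Dab2. Without the filter it was -0.57 (SE 0.26, adjusted p = 0.937) for Sox7, at an unadjusted p of 0.0449. The test passed for 0 of the 6 genes by limma and for 0 by limma-voom, and 0 had an unadjusted p under 0.05. Over all tested genes the share called was 0.0%, with 489 genes at an unadjusted p under 0.05, so a gene called with 1 line alone, here or in the lists that follow, was not shown to differ between lines. Both medium effects and both rescue effects draw on the same 4 groups, so their values are given side by side and are not independent of each other.

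Within groups, Lama1 and Col4a1 varied together while Sparc did not. After the group means were removed, the Pearson correlation of Lama1 and Col4a1 over the 12 libraries was 0.937, that of Sparc with Lama1 was -0.346 and that of Sparc with Col4a1 was -0.054. These are descriptions of libraries that differ in depth, and they carry no test. The exon length was 9518 bases for Lama1, 6818 for Col4a1 and 3367 for Sparc. The part of transcript length or RNA quality in these correlations was not tested. In WT naïve replicate 1, Lama1 lay 0.82 and Col4a1 0.96 above the group mean, and 15 of 16 listed basement membrane genes were above their group mean as well, beside 50.1% of all tested genes. That list holds matrix genes along with receptors such as Itgb1 and collagen-processing genes such as Serpinh1. In WT primed replicate 2, Lama1 lay at -0.53 and Col4a1 at -0.71, and 5 of the 16 were above, beside 50.4%. Mutant naïve replicate 1 was above its group mean for both genes and for 14 of the 16 (51.9% of tested genes), and mutant naïve replicate 2 below it for both, with 4 of the 16 above (51.0%). In mutant naïve replicate 3 the genes parted, with Lama1 at 0.27 and Col4a1 at -0.14 and 8 of the 16 above (49.5%). WT naïve replicates 2 and 3 and mutant primed replicate 1 were below for both genes, with 3, 2 and 2 of the 16 above. In mutant primed replicate 2 both genes were below (-0.12 and -0.11), yet 9 of the 16 were above. WT primed replicates 1 and 3 and mutant primed replicate 3 were above for both, with 11, 11 and 10 of the 16 above. Over all tested genes, the naïve replicates numbered 1 deviated together between rescue lines at a correlation of 0.586. Among the 16 partners, 9 correlated with Col4a1 above 0.7 in these deviations and 9 with Lama1, beside 6.3% and 6.03% of all tested genes. The highest were Col4a2 for Col4a1 (0.93) and Lamc1 for Lama1 (0.94). The correlations of Sparc with the 16 had a median of -0.222 and a highest value of 0.371. Serpinh1, the collagen chaperone, was the 1 partner with a negative correlation to Lama1 (-0.48) and to Col4a1 (-0.393).

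**Figure D3:**
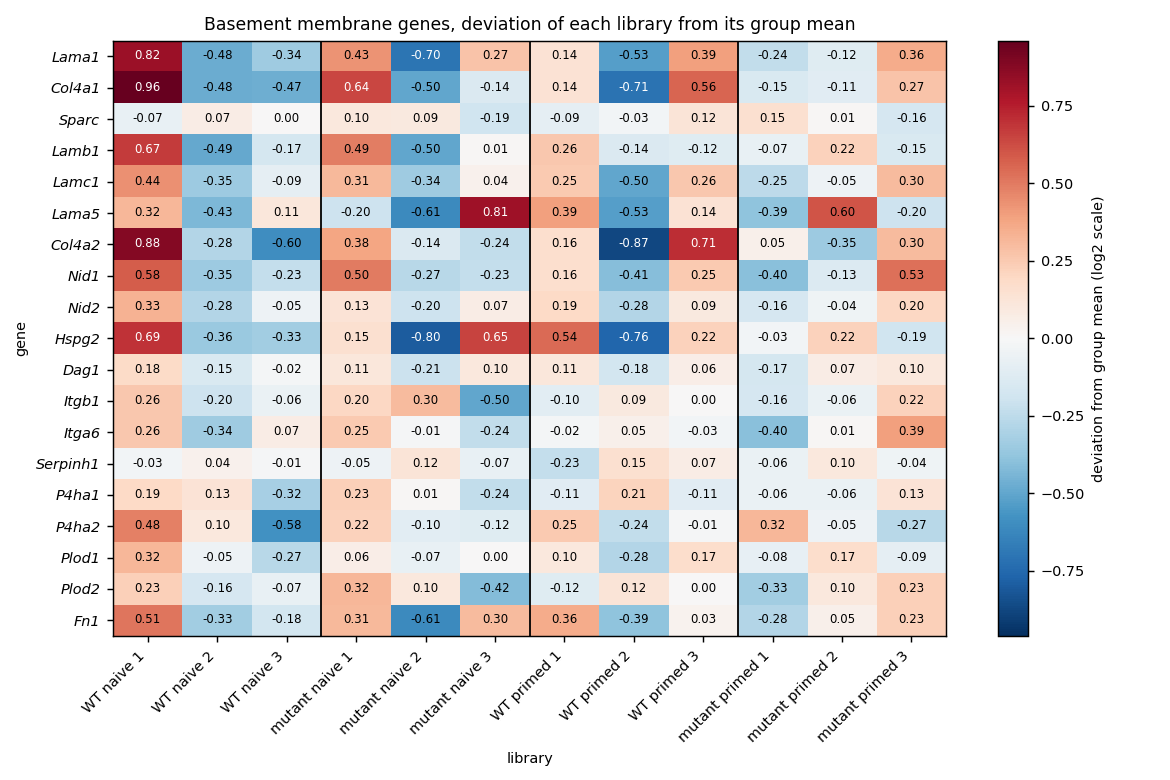
Deviation of each library from its group mean on the deposited log2 scale, with the 12 libraries as columns and lines between groups. From top to bottom are Lama1, Col4a1 and Sparc and then the 16 listed genes of basement membranes, receptors and collagen processing. WT naïve replicate 1 was above its group mean for 15 of the 16 listed genes and WT primed replicate 2 for 5. WT naïve replicate 3 and mutant primed replicate 1 were above for 2. Sparc deviated by -0.19 to 0.15.

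The listed partners of Col4a1 and Lama1, which include receptors and collagen-processing genes, did not follow a single direction between media. Of the 16 genes, all tested, 5 were higher and 2 lower in naïve ESCs with WT TET2, and 7 were higher and 1 lower with the mutant, with medians of 0.05 and 0.32. Nid1, which encodes the nidogen that links laminin to collagen IV, was higher by 1.71 (adjusted p = 0.000235) and 2.25 (adjusted p = 1.81e-05). Fn1 (fibronectin) was higher by 1.08 (adjusted p = 0.00496) and 1.73 (adjusted p = 0.000131), and Serpinh1 by 0.95 (adjusted p = 9.16e-05) and 0.89 (adjusted p = 0.00019). Hspg2, which encodes perlecan, was lower, as Col4a1 was, with differences of -2.21 (adjusted p = 0.000206) and -1.04 (adjusted p = 0.0339). Col4a2, whose product forms trimers with that of Col4a1, differed by -1.27 with WT TET2 (adjusted p = 0.0153) and by 0.03 with the mutant (adjusted p = 0.963), where Col4a1 was called. The interaction for Col4a2 was -1.30 (SE 0.53, adjusted p = 0.976). Col4a1 and Col4a2 lie head to head on chromosome 8 of NCBIM37, the build of the files, Col4a1 from 11198423 to 11312826 on the minus strand and Col4a2 from 11312805 to 11449287 on the plus strand. Their first exons share 22 bases, and reads from those bases cannot be assigned because the libraries kept no strand.

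Other genes of the lineage were called in both directions. Of 10 further primitive endoderm genes, 4 were tested, of which 1 was higher and 1 lower in naïve ESCs with WT TET2 and 2 were higher and 1 lower with the mutant. Lrp2 was the lower gene. Without the filter the counts were 1 higher and 2 lower with WT TET2 and 2 higher and 3 lower with the mutant. Pth1r, the receptor for parathyroid hormone and its related peptide, then differed by -2.07 (adjusted p = 4.51e-05) and -1.32 (adjusted p = 0.00207), with 1 naïve against 127 primed reads with WT TET2 and 2 against 48 with the mutant. Rspo3 differed by -0.84 with the mutant (adjusted p = 0.015) and by -0.31 with WT TET2 (adjusted p = 0.369). Fst, which encodes the activin antagonist follistatin, was higher by 1.39 (adjusted p = 0.000142) and 0.95 (adjusted p = 0.00326). Cited1 was higher by 1.06 with the mutant (adjusted p = 0.000825) and differed by 0.44 with WT TET2 (adjusted p = 0.0985). Of 12 visceral endoderm genes, 6 were tested, and Afp, Ttr, Ihh and Cer1 had 0 reads in all libraries. With WT TET2, Lefty1 was higher by 1.75 (adjusted p = 0.0486) and Apoe differed by -0.64 (adjusted p = 0.0346), and with the mutant Rbp4 was higher by 0.86 (adjusted p = 0.00703). With the mutant Lefty1 differed by 1.01 (adjusted p = 0.253) and Apoe by -0.03 (adjusted p = 0.924). Rbp4 differed by 0.08 with WT TET2 (adjusted p = 0.817). Without the filter Apob differed by -0.52 (adjusted p = 0.0433) and -0.71 (adjusted p = 0.00869), and Lefty1 was not called with WT TET2 (adjusted p = 0.0677). The summed level of the 12 ran from 380.67 to 802.40 reads per 1000000 gene reads, of which Apoe gave 79.6% to 93.5%. Of 7 parietal endoderm genes, 6 were tested, and with WT TET2 5 were lower in naïve ESCs, and with the mutant 4 were, with medians of -1.28 and -1.10 beside 0.01 and -0.01 over all tested genes. Without the filter 5 were lower with each line, Plat among them (-0.83, adjusted p = 0.0161, and -0.95, adjusted p = 0.00769). Thbd differed by -0.62 with WT TET2 (adjusted p = 0.0365) and was not called there without the filter (adjusted p = 0.0525). Among the lower genes, those that led were keratins of simple epithelia, which other epithelia share. Krt18 differed by -2.38 (adjusted p = 1.75e-05) and -1.63 (adjusted p = 0.000604), Krt8 by -2.30 (adjusted p = 3.19e-06) and -1.52 (adjusted p = 0.000205), and Krt19 by -1.78 (adjusted p = 1.82e-05) and -1.44 (adjusted p = 0.00015). Krt19 and Snai1 (-0.79, adjusted p = 0.00916, and -0.77, adjusted p = 0.0112) passed the filter through their primed groups alone, so they had to be lower in naïve ESCs in order to be tested, and the counts and medians of the list include them. The summed level of the 7 genes ran from 139.01 to 309.78 reads per 1000000 gene reads, of which Vim gave 79.4% to 98.2%. Vim was not called, with differences of 0.19 (adjusted p = 0.504) and 0.16 (adjusted p = 0.591).

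The FGF pathway, which induces the lineage, was measured alongside. Of its 13 listed genes, all tested, 8 were lower with WT TET2 in naïve ESCs, while the mutant had 8 lower and 1 higher. Over all tested genes, 17.3% were lower with WT TET2, and with the mutant 16.9% were lower and 18.3% higher. Without the filter 7 of the list were lower with WT TET2, and with the mutant 8 were lower and 1 higher. Spry4, Etv4 and Dusp6, targets of ERK, had the largest differences of the list. Spry4 went from 2110 reads in primed to 4 in naïve ESCs with WT TET2 and from 1267 to 1 with the mutant, Etv4 from 935 to 4 and from 771 to 9, and Dusp6 from 1454 to 39 and from 1000 to 25. Spry4 and Etv4 passed the filter through their primed groups alone, so they had to be lower in naïve ESCs in order to be tested. The counts of the list include them. Other targets differed less, Spry2 by -0.81 (adjusted p = 0.000573) and -0.86 (adjusted p = 0.000374) and Etv5 by -0.46 (adjusted p = 0.0416, and 0.0515 without the filter) and -0.60 (adjusted p = 0.0106). The receptor genes differed too, Fgfr2 by -2.37 (adjusted p = 5.64e-06) and -1.48 (adjusted p = 0.000514) and Fgfr1 by -1.22 (adjusted p = 3.38e-05) and -0.84 (adjusted p = 0.00105). The ligand gene Fgf4 was higher by 0.39 with the mutant (adjusted p = 0.0355) and differed by 0.28 with WT TET2 (adjusted p = 0.119). These values moved with the medium as Sox7, Dab2 and Col4a1 did, and their part in the levels of those genes was not tested.

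Relatives of the 10 genes also differed between media. Of 15 paralogs, 7 were tested, and Gata5, Col4a3 and Col4a4 had 0 reads. With WT TET2, 2 were higher and 5 lower in naïve ESCs, and with the mutant 2 were higher and 3 lower. Gata3, a factor of trophoblast and other lineages, had no read in the naïve groups and 428 and 189 reads in the primed groups with WT and mutant TET2, and differed by -3.37 (adjusted p = 2.53e-09) and -2.81 (adjusted p = 2.28e-08). Gata1 differed by -1.53 (adjusted p = 0.000101) and -0.97 (adjusted p = 0.00415) and Foxa3 by -1.10 (adjusted p = 0.000899) and -0.83 (adjusted p = 0.00685). Gata3, Gata1 and Foxa3 passed the filter through their primed groups alone, so they had to differ in order to be tested. Lama4 was higher in naïve ESCs by 1.02 (adjusted p = 0.00386) and 1.49 (adjusted p = 0.000223) and Lama3 by 0.84 (adjusted p = 0.000857) and 1.30 (adjusted p = 1.59e-05). Lama3 was also the paralog called between rescue lines, higher with WT TET2 in primed ESCs by 0.94 (adjusted p = 0.0196).

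Markers of pluripotency, which ESCs themselves carry, and of other cell types were read in the same libraries. Of 10 pluripotency genes, all tested, 3 were higher and 1 lower in naïve ESCs with WT TET2, and 2 were higher and 1 lower with the mutant. Tcfcp2l1 was higher by 2.33 (adjusted p = 4.14e-07) and 2.77 (adjusted p = 9.51e-08), Prdm14 by 1.64 (adjusted p = 8.2e-06) and 1.63 (adjusted p = 9.12e-06), and Zfp42 differed by -0.94 (adjusted p = 0.0105) and -1.29 (adjusted p = 0.00129). Nanog was higher by 0.57 with WT TET2 (adjusted p = 0.0357, and 0.0525 without the filter) and differed by 0.40 with the mutant (adjusted p = 0.137). Of 5 genes of definitive endoderm and mesendoderm, 3 were tested, and 1 was higher and 2 lower with WT TET2 and 1 higher and 1 lower with the mutant. Gsc was the higher gene, by 0.78 (adjusted p = 0.0151) and 1.11 (adjusted p = 0.00163). Eomes was lower with both lines (-1.62, adjusted p = 4.52e-06, and -1.39, adjusted p = 2.08e-05), and Cxcr4 differed by -0.71 with WT TET2 (adjusted p = 0.0191) and -0.43 with the mutant (adjusted p = 0.142). Without the filter T was also higher with WT TET2 (1.01, adjusted p = 0.00803) and differed by 0.70 with the mutant (adjusted p = 0.053).

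Of 7 trophoblast genes, 4 were tested, and 3 were lower with WT TET2 and 1 lower and 1 higher with the mutant. Ascl2 was lower with both (-1.03, adjusted p = 0.00195, and -0.69, adjusted p = 0.0235). Tcfap2c differed by -0.55 (adjusted p = 0.0156) and -0.28 (adjusted p = 0.189), Krt7 by -0.87 (adjusted p = 0.0105) and 0.52 (adjusted p = 0.106), and 1600029D21Rik by 0.39 (adjusted p = 0.23) and 1.09 (adjusted p = 0.00302). Without the filter 5 of the 7 were lower with WT TET2, and with the mutant 4 were lower and 1 higher. The added genes were Hand1 (-2.10, adjusted p = 4.29e-06, and -1.23, adjusted p = 0.000563) and Elf5 (-0.88, adjusted p = 0.00369, and -0.61, adjusted p = 0.0294), and with the mutant Cdx2 (-1.08, adjusted p = 0.00125, and -0.40, adjusted p = 0.175, with WT TET2). Hand1 had 0 naïve and 110 primed reads with WT TET2 and 2 and 35 with the mutant. Of 8 fibroblast genes, 3 were tested, of which 1 was higher with WT TET2 and 1 higher and 1 lower with the mutant, and Col1a2, Col3a1, Dcn and Postn had 0 reads in every library, while Thy1 was higher in naïve ESCs by 0.85 (adjusted p = 0.00474) and 1.40 (adjusted p = 9.34e-05). Lum differed by 0.32 with WT TET2 (adjusted p = 0.403) and by -0.95 with the mutant (adjusted p = 0.0161). The summed level of the fibroblast genes was 5.06 to 14.27 reads per 1000000 gene reads, with Fbn1 the most abundant. Of 5 endothelial genes, 3 were tested, and 1 was higher with WT TET2 in naïve ESCs, while with the mutant all 3 were. Pecam1, which gave 90.5% to 95% of their reads, was higher by 0.80 (adjusted p = 0.00237) and 0.76 (adjusted p = 0.00355). Tek differed by 0.77 (adjusted p = 0.0516) and 1.00 (adjusted p = 0.0155) and Cldn5 by 0.68 (adjusted p = 0.0578) and 0.78 (adjusted p = 0.0333). Without the filter Cdh5 was lower with WT TET2 (-0.98, adjusted p = 0.000615) and differed by -0.13 with the mutant (adjusted p = 0.631). The part of these markers in the values of the 10 genes was not tested.

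Likeness to the members was measured as the Pearson correlation with the mean scaled value of the 6 tested genes, over 12 libraries. That mean correlated with the 6 genes themselves from 0.103 (Sparc) to 0.656 (Lama1). It was highest for Cd37 (0.905), Gnaz (0.896), Nptxr (0.889), Zfp362 (0.877) and Gmip (0.865). With group means removed it was highest for Nptxr (0.975), Synm (0.956), Dis3l (0.956), Rin1 (0.952) and Lmo7 (0.946). The mean itself then correlated at 0.925 with Col4a1, 0.859 with Lama1, 0.679 with Gata4, 0.517 with Sox17, 0.148 with Dab2 and 0.02 with Sparc. These values rank all tested genes over few libraries and carry no test.

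Promoter sequences are shown for the 2 genes called between media and for Col4a2, since Col4a1 and Dab2 moved together across media and Col4a1 and Col4a2 start within a shared stretch. RefSeq windows of 250 bases before to 50 after the start (GRCm38.p6, a later build than that of the files) were found for 5 of the 10 genes, Foxa2, Pdgfra, Dab2, Sparc and Col4a1. Windows of Gata4, Gata6, Sox17, Sox7 and Lama1 were missing. The windows of Col4a1 and Col4a2 share 78 bases and their starts lie 21 bases apart. They hold 37 and 33 CG dinucleotides at 74.0% and 73.7% G and C, against medians of 7 and 52.7% over 32851 promoters. Capitals mark matches, on either strand, to GATAA (found in 25.4% of all promoters), ACAAT (31.0%), TGTTTA (13.4%), GGGCGG (35.7%) and TATAAA (13.6%). The Col4a1 window holds 1 match and the Col4a2 window 3, all to GGGCGG or its complement CCGCCC. The match of Col4a1 (base 260) and the last of Col4a2 (base 258) are the same bases, chr8:11312812-11312817, read on opposite strands. The first Dab2 window holds GATAA at base 73 and its complement TTATC at base 265, and the second holds TAAACA, the complement of TGTTTA, at base 191. A match describes these letters and is not a binding site, and a window without one says only that the letters are not there.
Col4a1, chr8:11312777-11313076, minus strand: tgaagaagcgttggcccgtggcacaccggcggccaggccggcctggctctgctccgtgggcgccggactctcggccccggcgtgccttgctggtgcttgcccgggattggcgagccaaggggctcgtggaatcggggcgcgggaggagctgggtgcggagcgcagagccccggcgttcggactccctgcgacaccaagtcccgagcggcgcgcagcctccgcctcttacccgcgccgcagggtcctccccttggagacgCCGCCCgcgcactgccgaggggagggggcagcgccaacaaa
Col4a2, chr8:11312555-11312854, plus strand: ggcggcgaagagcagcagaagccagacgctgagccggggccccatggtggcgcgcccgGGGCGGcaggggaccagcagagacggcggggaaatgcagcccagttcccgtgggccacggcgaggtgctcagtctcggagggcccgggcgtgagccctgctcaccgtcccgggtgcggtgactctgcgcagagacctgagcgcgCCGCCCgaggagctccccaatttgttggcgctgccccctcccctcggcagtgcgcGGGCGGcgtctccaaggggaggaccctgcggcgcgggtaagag
Dab2, chr15:6299539-6299838, plus strand: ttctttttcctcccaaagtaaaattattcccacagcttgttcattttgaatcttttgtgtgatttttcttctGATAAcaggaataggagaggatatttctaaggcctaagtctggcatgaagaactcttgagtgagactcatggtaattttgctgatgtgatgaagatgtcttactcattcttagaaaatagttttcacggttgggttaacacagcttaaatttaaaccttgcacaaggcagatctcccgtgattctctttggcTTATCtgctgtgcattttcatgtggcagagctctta
Dab2, chr15:6386498-6386797, plus strand: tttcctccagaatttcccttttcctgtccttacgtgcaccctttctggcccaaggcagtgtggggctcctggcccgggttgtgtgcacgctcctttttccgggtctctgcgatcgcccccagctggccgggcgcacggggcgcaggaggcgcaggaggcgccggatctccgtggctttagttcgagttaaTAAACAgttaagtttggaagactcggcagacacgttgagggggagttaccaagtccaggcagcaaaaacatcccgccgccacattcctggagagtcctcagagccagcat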

How the data were processed

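RNA from 12 libraries was analysed, grouped by their labels. Per the submitters' processing notes, reads were trimmed with Trim Galore 0.3.3 and aligned to mm9 with TopHat2 2.0.9, and the authors deposited gene values on a log2 scale after the variance-stabilising transformation of DESeq2. The gene annotation they used is not given in the sources used here. Libraries were not strand-specific. Inverting the transformation gave whole reads (within 0.01) for 100% of values, from which RPKM was computed with exon lengths of GENCODE vM1 on NCBIM37 (overlapping Dab2 models joined). Some listed symbols were matched through RefSeq synonyms.

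Differences were tested with limma 3.58.1 in R 4.3.3, with an intensity trend and all 12 libraries in 1 fit of 4 groups. Genes were tested, with Benjamini-Hochberg adjustment, when their mean was at least 1 above the lowest value (3.81). Tables and figures used Python 3.11.15, numpy 2.4.6, pandas 2.3.3, scipy 1.17.1 and matplotlib 3.10.9. The 10 genes and all other lists were chosen with earlier results of these data known. From each other list, genes called between media with either rescue line were named, at most 3 in each direction by the difference averaged over both rescue lines, as were the 5 genes most correlated with the mean scaled value of the members that passed the filter. Pou5f1, Fbn1, Spry2, Etv5, Fgfr1, Fgfr2, Snai1 and the genes called without the filter alone were named after their values were seen, and the signs within naïve pairs were counted after that as well. Alternatives were other filters, scalings, variance models and thresholds, limma-voom, a replicate block, the compared libraries alone, and each library left out.

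Same-numbered libraries deviated together between rescue lines in naïve ESCs (correlations of 0.3 to 0.586 over tested genes). In primed ESCs the correlations were -0.065 to 0.189, and between media -0.146 to 0.22. The alternative with the replicate number as a block was run for every comparison, within medium between rescue lines and over both media otherwise, though the correlations bear out such a pairing between rescue lines in naïve ESCs alone.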

Additional observations from a re-analysis of the deposited data

How the results depend on the processing

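The calls of Col4a1 and Dab2 with WT TET2 kept their direction and their side of the threshold in every fit that included them (24 and 23 fits). For Dab2 the direction in the filtered fits was set by the filter, which it passed through its primed groups. Among the 6 fits with no filter that left out a compared library, 6 called Dab2 lower with WT TET2 and 2 with the mutant. With the mutant, Col4a1 and Dab2 both kept their direction, and 18 of 24 and 18 of 23 fits called them. Of the fits that did not, each left out a library, and all but that without mutant naïve replicate 2 also had no filter. The number of genes called between media was 1 for each line when the mean had to be at least 2 above the lowest value, because Dab2 was then not tested, and 1 with the mutant when a difference over 1 was also required. Without a filter it was 4 with the mutant, through Sox7 and Foxa2. Leaving out each library gave 2 with WT TET2 in every case and 0 to 2 with the mutant. Between rescue lines and for the interaction, the number called was 0 under every alternative. With the replicate number as a block it was 2 for each line between media, 0 between rescue lines and 0 for the interaction, so the block changed none of these calls. It ended the call of Foxa2 without a filter (adjusted p = 0.0515). Combining no filter with another change, counting the other lists without a filter, and leaving libraries out of read ratios were chosen after seeing the data. Read counts limit all statements on Foxa2, Gata6, Pdgfra, Sox7 and Dab2, which had 12 to 158 reads over the 12 libraries, and differences in them smaller than their counting intervals were not detectable at this depth.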
